A study of Homo sapiens with 8 samples.

Results

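The YAP/TAZ pathway was followed through 9 genes, taken by their symbols from the 25192 gene IDs of the expression tables: YAP1, WWTR1, TEAD1, CTGF, CYR61, ANKRD1, AMOTL2, LATS2 and AXL. CTGF and CYR61 are the older symbols of CCN2 and CCN1, and WWTR1 is the gene of the protein TAZ. HT29 and SW480 are established human colorectal cancer cell lines that carry mutant APC, and no allele was introduced into either of them. Each line was transfected with control siRNA (siCon) or with siRNA against PRDX2 (siPrdx2), the gene of the peroxidase PrxII, and RNA was taken after 36 h. Messenger RNA was sequenced from 2 libraries per line and siRNA, 8 in all. Medium differed between the lines, with McCoy's 5A for HT29 and RPMI1840 for SW480, and serum did not. The study speaks of duplicate experiments without saying whether these were separate transfections, so the p-values measure only the spread between these libraries, which may be technical. Which PRDX2 siRNA sequence was used for these libraries was not given in the sources used here, so an effect of a single siRNA and an effect of PRDX2 loss cannot be told apart.

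YAP and TAZ are transcriptional coactivators that carry the output of the Hippo pathway. When the kinases MST and LATS are active, YAP and TAZ are phosphorylated and kept in the cytoplasm or degraded. When the kinases are inactive, YAP and TAZ enter the nucleus and bind TEAD proteins, which contact DNA. CTGF, CYR61 and ANKRD1 are the genes most widely used to read out that activity. LATS2 and AMOTL2 are both targets of YAP and TAZ and inhibitors of them, which makes a negative feedback loop. In the intestine the pathway is known for its part in regeneration after injury and in tumor growth. Because YAP and TAZ are regulated largely by phosphorylation and location, the amount of their mRNA does not measure their activity.

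TEAD proteins recognise a short motif. The promoters of CTGF and ANKRD1 are shown because they held the most copies of it among the 7 members searched. These genes also carried the strongest responses in SW480 cells. That response was part of the choice, and a link between motif and response was not tested. The letters GGAATG were searched on both strands (CATTCC on the other) in RefSeq windows of build GRCh38.p14 that run from 250 bases before to 50 bases after each annotated start. Windows were matched for 7 of the 9 members, 10 windows in all. None was matched for TEAD1 or CYR61, so these genes were not searched. The 250 bases upstream of each start follow, 5′ to 3′ on the strand of the gene, at chr6:131951373-131951622 (minus strand) for CTGF and chr10:90921088-90921337 (minus strand) for ANKRD1, with the motif in capitals.
CTGF: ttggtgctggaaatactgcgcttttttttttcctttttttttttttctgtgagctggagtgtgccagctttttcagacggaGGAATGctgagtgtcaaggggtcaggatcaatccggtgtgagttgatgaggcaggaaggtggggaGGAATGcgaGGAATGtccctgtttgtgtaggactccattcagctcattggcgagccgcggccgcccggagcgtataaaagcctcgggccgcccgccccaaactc
ANKRD1: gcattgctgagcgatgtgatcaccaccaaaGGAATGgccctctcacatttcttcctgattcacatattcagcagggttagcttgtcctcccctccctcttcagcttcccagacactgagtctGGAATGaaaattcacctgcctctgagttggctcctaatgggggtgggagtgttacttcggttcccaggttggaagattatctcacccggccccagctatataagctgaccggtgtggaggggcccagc
The CTGF window held 3 matches, whose first bases lay at -169, -104 and -95 from the start. The ANKRD1 window held 2, at -220 and -128. Of 35116 windows of the same length over all genes, 14% held at least 1 match, 1.37% at least 2 and 0.128%, which is 45 windows, at least 3.

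One match each was found for YAP1 at -162, AMOTL2 at -69, LATS2 at 10 and AXL at -212, the AMOTL2 and AXL matches each in only the second of their annotated starts. WWTR1 had none in either of its windows, which says only that these letters are not there. The surrounding 30 bases are shown for the members with a single match, on the strand of the gene, with the motif or its complement in capitals.
YAP1: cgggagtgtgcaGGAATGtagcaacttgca
AMOTL2: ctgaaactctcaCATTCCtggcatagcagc
LATS2: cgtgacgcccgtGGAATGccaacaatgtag
AXL: cagactttgcacCATTCCactccctccgct
A match is a description of the sequence, and occupancy by TEAD was not measured here.

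The libraries held between 8857442 and 10164137 expected counts each, so that 3 counts correspond to 0.295 to 0.339 CPM (counts scaled to library size), a floor that covers counting error only. PRDX2 itself was at 148.1 and 153.8 CPM in HT29 siCon and at 82.4 and 83.2 CPM in HT29 siPrdx2, and at 209.1 and 246.1 CPM in SW480 siCon and 69.5 and 70.7 CPM in SW480 siPrdx2. It fell in HT29 (log2 -0.87, SE 0.05, adjusted p = 1.154e-09) and further in SW480 (log2 -1.70, SE 0.12, adjusted p = 6.177e-04), and the test of the difference gave 0.84 (SE 0.12, adjusted p = 0.0128). These and all adjusted p-values below were obtained with the quasi-likelihood F test of edgeR and adjusted by Benjamini-Hochberg over all genes tested, with 2 libraries in every group and a threshold of 0.05. Of 7 epithelial markers, all were at 1 TPM (RSEM's level per transcript length and library size) or more in every HT29 library and 6 in every SW480 library, while of 9 markers of fibroblasts, leukocytes and endothelium 3 to 5 were at 0 in every library of a group. DCN and PTPRC were at 0 in all 8, and the sum over the 9 was 21.41 to 32.11 TPM, most of it CD68 at 12.63 to 27.94 TPM, with COL1A1 at 7.35 to 9.33 TPM in SW480. The SW480 siCon duplicates stood apart from each other, with a chi-square of 8.91 per degree of freedom against 1.35 to 1.9 in the other 3 groups, and the difference between them followed transcript GC content (Spearman's rho 0.79 across genes). The SW480 values below are therefore given with both siCon libraries.

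The question asked first was how the pathway stood in each line before PRDX2 was targeted. YAP1 was at like levels in the control cells of both lines, while WWTR1 and the targets ANKRD1, CYR61 and AXL were far lower in HT29. On the TPM scale, which corrects for transcript length, HT29 siCon was ordered YAP1 (114 ± 4.39, SD), AMOTL2 (55.2 ± 1.49), TEAD1 (54.4 ± 2.83), LATS2 (15.0 ± 1.195), CTGF (10.1 ± 1.07), CYR61 (8.61 ± 0.948), AXL (5.30 ± 0.707), ANKRD1 (0.920 ± 0.014) and WWTR1 (0.445 ± 0.007). Only the neighbours AMOTL2 and TEAD1 overlapped between libraries in that order. In SW480 siCon the order was ANKRD1 (355 ± 57.8), CYR61 (328 ± 20.4), YAP1 (134 ± 15.5), AXL (110 ± 4.73), TEAD1 (96.0 ± 5.16), AMOTL2 (78.1 ± 11.0), WWTR1 (35.2 ± 2.69), CTGF (27.3 ± 0.608) and LATS2 (20.6 ± 2.65). There ANKRD1 and CYR61 overlapped. ANKRD1 and CYR61, which led the order in SW480, thus lay at rank 8 and rank 6 of the 9 members in HT29.

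The test of HT29 siCon against SW480 siCon called 67.5% of all genes tested, and 35.7% of all genes tested were lower in HT29, so that calls were common. ANKRD1, a nuclear ankyrin-repeat protein, was 348-fold lower in HT29, a ratio that rests on 8 counts in each HT29 library against 3005 and 2607 in SW480. It reached the minimum of 10 counts only through SW480, so its direction was fixed by that minimum and no test is given. WWTR1 was 71.6-fold lower (log2 -6.16, SE 0.20, adjusted p = 7.23e-08), from 10 counts in each HT29 library against 727 and 718. CYR61, a secreted matrix protein, was 34.8-fold lower (log2 -5.12, SE 0.14), and AXL, a receptor tyrosine kinase, was 18.9-fold lower (log2 -4.24, SE 0.14). The matrix protein gene CTGF was 2.46-fold lower (log2 -1.30, SE 0.16), and TEAD1, the DNA-binding partner, 1.62-fold lower (log2 -0.69, SE 0.10). AMOTL2, an angiomotin-family junction protein that holds YAP in the cytoplasm, differed by -0.37 (SE 0.12, adjusted p = 0.0257), a call lost without either HT29 siCon library (adjusted p up to 0.308). LATS2 differed by -0.33 (adjusted p = 0.0642) and YAP1 by -0.09 (adjusted p = 0.484, 95% interval -0.32 to 0.15). In bulk RNA, fewer cells that express a gene and less RNA per cell cannot be told apart.

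These levels set the makeup of each protein family at the mRNA. YAP1 made up 99.4% to 99.6% of the summed YAP1 and WWTR1 TPM in the 4 HT29 libraries, whereas in SW480 it made up 79.6% and 78.7% with siCon and 73.8% and 74.5% with siPrdx2. Among TEAD1 to TEAD4, TEAD1 took 26.7% to 29.0% in HT29 and 45.4% to 51.5% in SW480. LATS2 held 31.7% to 38.8% of the LATS1 and LATS2 sum in HT29, and in SW480 it held 56.3% and 60.9% with siCon and 51.1% and 53.0% with siPrdx2. Of CTGF and CYR61 together, CYR61 was 42.2% to 53.5% in HT29 and 91.9% to 95.1% in SW480. The SW480 libraries thus held more WWTR1, more TEAD1 and more CYR61 relative to their paralogs than any HT29 library.

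The main comparison was siPrdx2 against siCon within each line. In SW480 cells, 4 of 9 members fell and none rose, and the 4 were the direct-target readouts CTGF, ANKRD1 and CYR61 together with AXL. Over all genes in SW480 the test called 3.3%, with 2.08% lower and 1.22% higher. The median log2 fold change of the members was -0.51, against 0.00 for all genes tested. In HT29 cells, 2 of the 8 members tested fell, AMOTL2 and YAP1, and none rose, while 17.6% of all genes were called there, 9.82% lower and 7.76% higher. The shares do not compare the lines, since each fit had its own spread between libraries. Beyond counting error, its coefficient of variation was 0.0249 in HT29 and 0.0993 in SW480. With all 8 libraries in 1 fit, 185 genes were called in HT29 and 2415 in SW480. The HT29 median was -0.11 for the members against 0.00 for all genes. By limma on log2(TPM + 1) the split over all genes leaned to higher, with 1252 higher and 548 lower in HT29 and 126 higher and 88 lower in SW480.

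**Figure D1:**
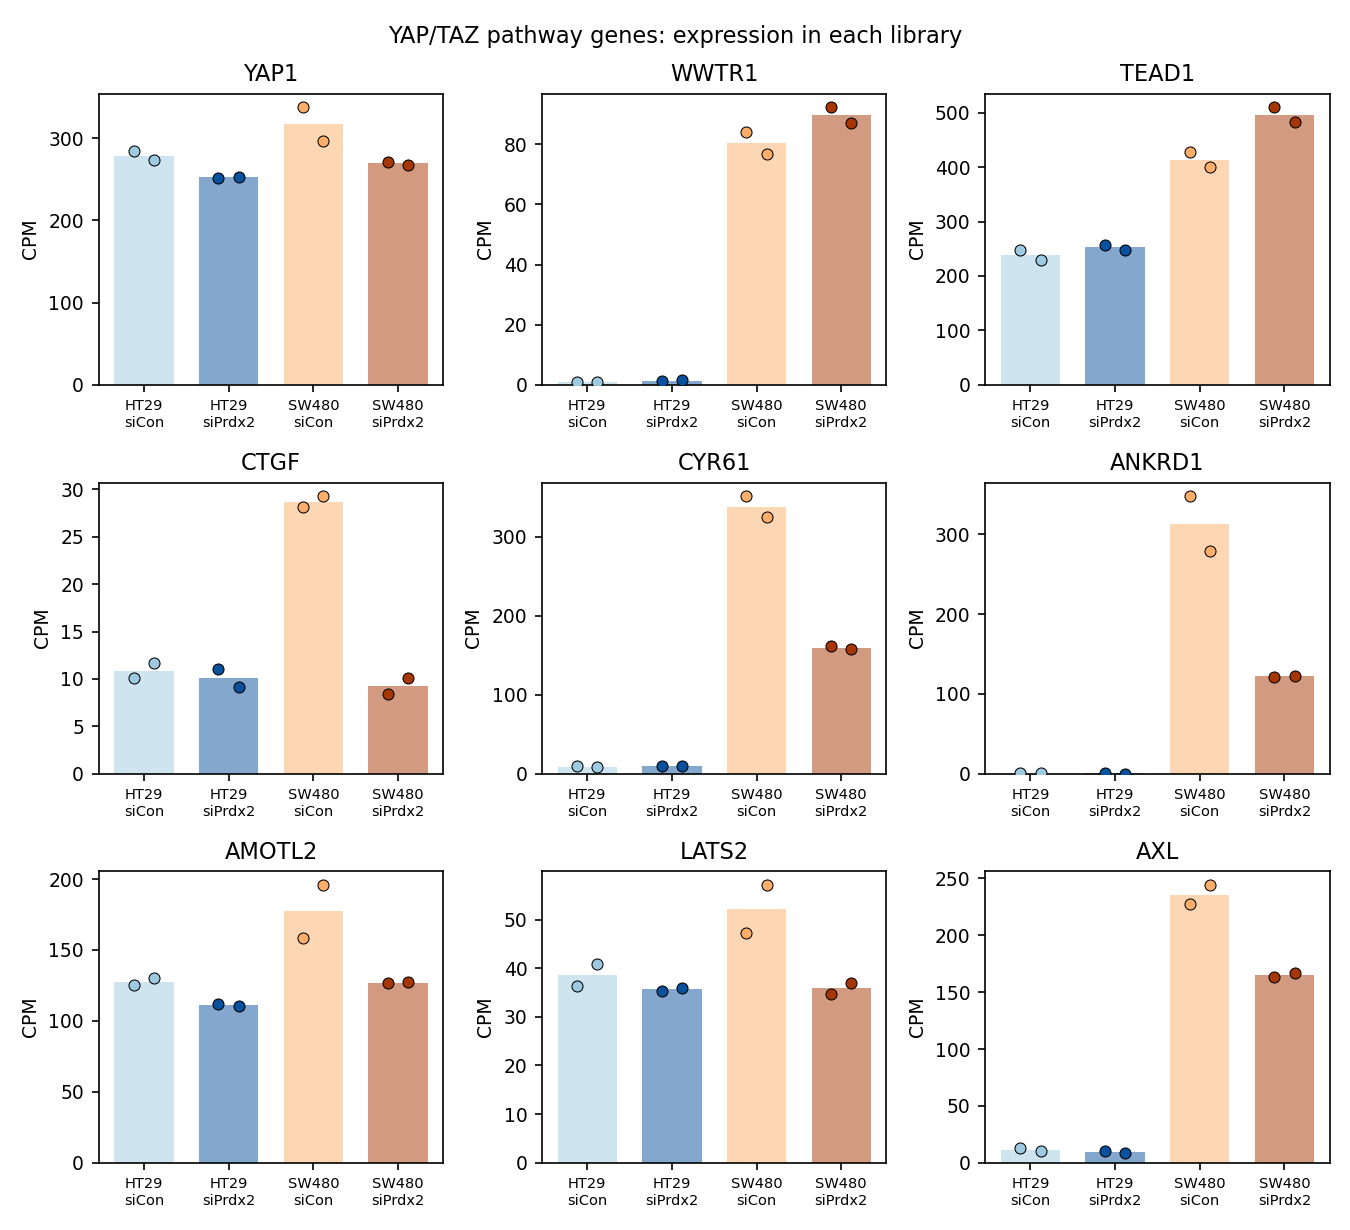
CPM of the 9 members in each library, after TMM normalization within each cell line. Points are libraries, bars are the mean of 2 libraries, and each panel has its own linear axis from 0. In SW480 the CTGF, CYR61, ANKRD1 and AXL points of siPrdx2 lie below those of siCon without overlap, and in HT29 ANKRD1 and WWTR1 are close to 0.

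Among the coactivators, YAP1 (GRCh37 chr11:101981178-102104155, plus strand) was at 284.3 and 273.7 CPM in HT29 siCon and at 251.6 and 253.0 CPM in HT29 siPrdx2. The siPrdx2 libraries were below both controls, a fall of 0.15 on the log2 scale (SE 0.04, adjusted p = 0.00803). In SW480 it was at 337.7 and 296.7 CPM with siCon and at 271.6 and 268.0 CPM with siPrdx2. The groups did not overlap, yet the change of -0.23 did not pass the test (SE 0.11, adjusted p = 0.216, 95% interval -0.47 to 0.01). The change was -0.33 without SW480 siCon replicate 2 and -0.14 without siCon replicate 1. With 1 siCon library left, the spread came from the siPrdx2 duplicates alone, so only the effect sizes are given. After correction for transcript GC content it was -0.13 (adjusted p = 0.163). The effect of siPrdx2 on YAP1 in HT29 differed from that in SW480 by 0.09 (SE 0.11, adjusted p = 0.673). The HT29 call was not made by DESeq2 (adjusted p = 0.0575), by limma or in a fit of all 8 libraries (adjusted p = 0.464), and it was lost without HT29 siCon replicate 1 (adjusted p = 0.0689).

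WWTR1 (chr3:149235022-149454501, minus strand) had its higher values with siPrdx2, unlike YAP1. It was at 84.0 and 76.7 CPM in SW480 siCon and at 92.3 and 87.0 CPM in SW480 siPrdx2, which do not overlap. The change of 0.16 did not pass the test (SE 0.11, adjusted p = 0.410), and passed it at 0.29 after correction for transcript GC content (adjusted p = 0.0188). In HT29 the 4 libraries held 10, 10, 13 and 14 counts, so the interval of the change ran from -0.47 to 1.26, and a change of the SW480 size was not detectable at this depth.

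TEAD1 (chr11:12695968-12966284, plus strand) was at 427.6 and 399.4 CPM in SW480 siCon and at 509.9 and 483.6 CPM in SW480 siPrdx2. Both siPrdx2 libraries were the higher ones, with a change of 0.26 that did not pass the test (SE 0.10, adjusted p = 0.141, 95% interval 0.05 to 0.48). With the GC correction the change was 0.37 and passed (adjusted p = 0.00301). In HT29, at 247.4 and 230.0 CPM against 256.7 and 248.2 CPM, the change was 0.08 (SE 0.04, adjusted p = 0.188), and it passed at 0.13 without HT29 siCon replicate 1 (adjusted p = 0.0416). HT29 values of siCon and siPrdx2 lay close, but the siPrdx2 libraries were again above both controls.

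Among the targets, CTGF (chr6:132269316-132272512, minus strand) showed the largest change of the 9 members in SW480. It was at 28.09 and 29.26 CPM in SW480 siCon and at 8.43 and 10.11 CPM in SW480 siPrdx2. This was a 3.09-fold reduction (log2 -1.63, SE 0.17, adjusted p = 0.00383). In HT29 the control libraries held 10.06 and 11.69 CPM and the siPrdx2 libraries 11.02 and 9.15 CPM. These values overlapped, and the change was -0.10 (SE 0.15, adjusted p = 0.705, 95% interval -0.42 to 0.21). After siPrdx2 the SW480 level was close to that of HT29, although each line was normalized on its own.

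CYR61 (chr1:86046444-86050272, plus strand) was at 351.0 and 324.5 CPM in SW480 siCon and at 161.4 and 157.8 CPM in SW480 siPrdx2. The reduction was 2.12-fold (log2 -1.08, SE 0.10, adjusted p = 0.00262). HT29 held 9.75 and 8.35 CPM with siCon and 9.75 and 10.31 CPM with siPrdx2, where the change was 0.15 (SE 0.15, adjusted p = 0.567, 95% interval -0.17 to 0.47). On the TPM scale CYR61 remained at 162.94 and 166.84 in SW480 siPrdx2, against 7.94 to 10.22 over the HT29 libraries.

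ANKRD1 (chr10:92671853-92680844, minus strand) was at 347.4 and 278.4 CPM in SW480 siCon and at 121.2 and 123.0 CPM in SW480 siPrdx2. It fell 2.56-fold (log2 -1.36, SE 0.13, adjusted p = 0.00262). The siCon libraries differed from each other by more than the siPrdx2 libraries did, and all siPrdx2 values lay well below them. In HT29 the counts were 8, 8, 8 and 3, under the minimum of 10 counts, and ANKRD1 was not tested there.

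The SW480 falls of CTGF, CYR61 and ANKRD1 kept their direction and their side of the threshold under each of the 13 alternatives run, including those that left out 1 library. CTGF ranged from -1.76 to -1.45 on the log2 scale, CYR61 from -1.14 to -0.99 and ANKRD1 from -1.51 to -1.19, and the highest adjusted p among them was 0.0183. AXL (chr19:41725128-41767671, plus strand) was at 227.5 and 243.9 CPM in SW480 siCon and at 163.4 and 167.3 CPM in SW480 siPrdx2, a 1.43-fold reduction (log2 -0.51, SE 0.11, adjusted p = 0.0384). This call did not hold by limma (adjusted p = 0.0866 and 0.0909) or without either siPrdx2 library (adjusted p = 0.590 and 0.597). In HT29 AXL was at 12.7 and 10.5 CPM with siCon and at 10.2 and 8.31 CPM with siPrdx2. That change of -0.32 did not pass (SE 0.16, adjusted p = 0.174, 95% interval -0.65 to 0.01).

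Of the feedback inhibitors, AMOTL2 (chr3:134074189-134094321, minus strand) was at 125.2 and 130.1 CPM in HT29 siCon and at 112.0 and 110.3 CPM in HT29 siPrdx2. It fell by 0.20 on the log2 scale (SE 0.05, adjusted p = 0.00716). As for YAP1, the call was not made by DESeq2 (adjusted p = 0.0827), by limma or in the fit of all 8 libraries (adjusted p = 0.413). In SW480 AMOTL2 was at 158.7 and 195.5 CPM with siCon and at 126.4 and 127.4 CPM with siPrdx2. The change of -0.48 did not pass the test (SE 0.13, adjusted p = 0.0690, 95% interval -0.76 to -0.20). The siCon duplicates were further apart than the siPrdx2 duplicates.

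LATS2 (chr13:21547175-21635725, minus strand), the kinase that phosphorylates YAP and TAZ, was at 47.2 and 57.0 CPM in SW480 siCon and at 34.7 and 36.99 CPM in SW480 siPrdx2. Its change was -0.54 (SE 0.14, adjusted p = 0.0679, 95% interval -0.85 to -0.23). In HT29 it was at 36.4 and 40.8 CPM against 35.3 and 36.0 CPM, a change of -0.12 (SE 0.08, adjusted p = 0.341). In SW480, AMOTL2 and LATS2 both passed by DESeq2 (adjusted p = 0.0228 and 0.0459), after the GC correction (adjusted p = 3.85e-04 and 0.00273) and in the fit of all 8 libraries (adjusted p = 0.00764 and 0.0107). Neither passed by limma on log2(TPM + 1) (adjusted p = 0.139 and 0.147) or log2(TPM + 0.1) (adjusted p = 0.142 and 0.147). Both also fell short with RLE size factors and in the unfiltered table. The number of members called in SW480 was 8 after the GC correction, with AMOTL2 and LATS2 lower and TEAD1 and WWTR1 higher beside the 4 above. Calls were also more common over all genes with that correction, at 2153 of 14112 against 466 without it. Without siCon replicate 1, AMOTL2 changed by -0.63 and LATS2 by -0.67, and without siCon replicate 2 by -0.33 and -0.40.

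**Figure D2:**
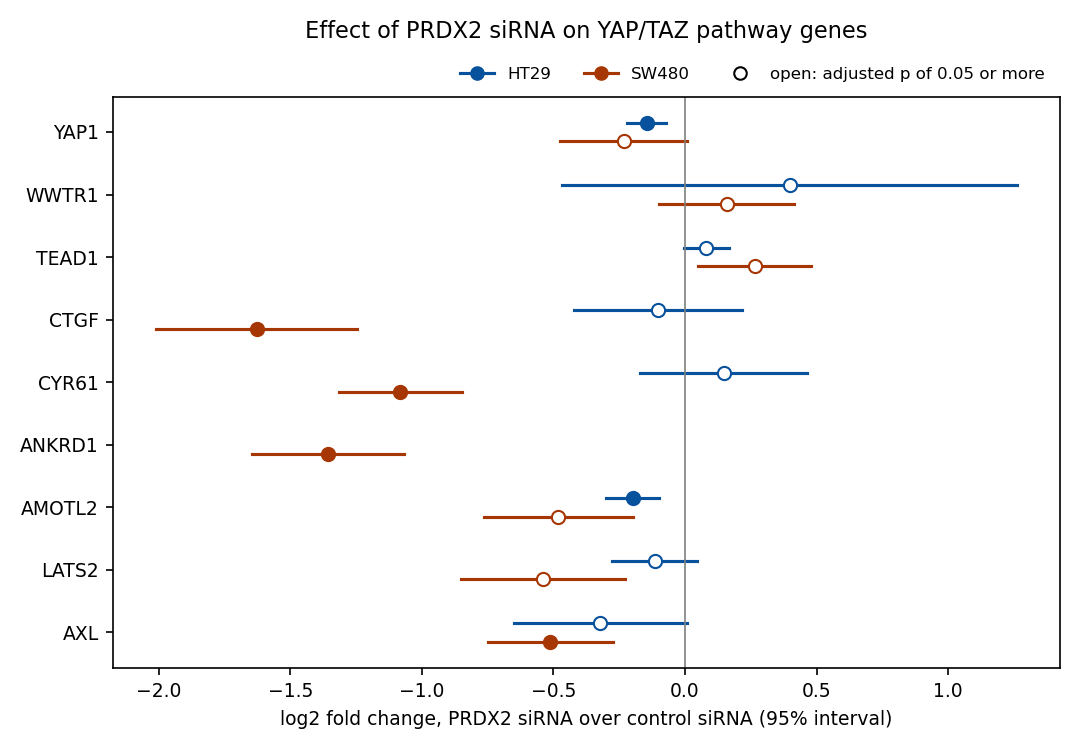
log2 fold change of siPrdx2 over siCon for the 9 members in HT29 and SW480. Points are edgeR estimates, lines are 95% intervals, and filled points have an adjusted p under 0.05. CTGF, ANKRD1 and CYR61 in SW480 lie at -1.63, -1.36 and -1.08, apart from the other estimates, and ANKRD1 has no HT29 estimate.

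Whether siPrdx2 acted differently in the lines was tested as the difference of the effects, HT29 minus SW480, in 1 fit of all 8 libraries. The lines share 1 spread in that fit. Its coefficient of variation was 0.0723, above the 0.0249 of HT29 alone and below the 0.0993 of SW480 alone. This test uses the same libraries as the comparisons within each line and adds no new ones. It called 2 of 9 members, CTGF and CYR61, against 1.12% of all genes. The difference was 1.52 for CTGF (SE 0.22, adjusted p = 0.0124, 95% interval 1.04 to 2.01) and 1.23 for CYR61 (SE 0.15, adjusted p = 0.00578, 95% interval 0.89 to 1.57), with a fall in SW480 and no change past the threshold in HT29 for both. For ANKRD1 it was 0.80 (SE 0.64, adjusted p = 0.512) with an interval of -0.60 to 2.19, from 3 to 8 counts per HT29 library. AXL (0.19, adjusted p = 0.567), AMOTL2 (0.28, adjusted p = 0.274) and LATS2 (0.43, adjusted p = 0.188) did not pass, and the LATS2 interval was 0.08 to 0.78. The CTGF call was lost without any HT29 library and without either SW480 siPrdx2 library (adjusted p up to 0.137), and that of CYR61 in 5 of the 8 fits that leave out 1 library (adjusted p up to 0.0779). PRDX2 mRNA also fell further in SW480, and its part in these differences was not tested.

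The other genes of the pathway were taken from written lists of 56 genes. Of 48 tested in HT29, 16 passed, 12 higher and 4 lower, and of 53 tested in SW480, 4 passed, 1 higher and 3 lower. Over all genes the shares were 17.6% in HT29 and 3.3% in SW480, and the counts of each list below are to be read against them. The Hippo kinase module holds the kinases MST1 and MST2 (STK4 and STK3), LATS1, their adaptors and the MAP4K and TAO kinases that act on LATS. In HT29, 3 of its 10 genes passed, with the kinases TAOK3 (0.28, SE 0.09, adjusted p = 0.0297) and MAP4K4 (0.27, SE 0.05, adjusted p = 0.00119) higher and the MST adaptor SAV1 (-0.31, SE 0.07, adjusted p = 0.00572) lower. In SW480 none of the 10 passed edgeR's adjusted threshold, and 3 had an unadjusted p under 0.05, all of them lower. These were MOB1B (-0.58, adjusted p = 0.0571), MOB1A (-0.31, adjusted p = 0.151) and STK4 (-0.27, adjusted p = 0.175). Of the genes called in HT29, MAP4K4 changed in SW480 by 0.21 (adjusted p = 0.232), TAOK3 by 0.07 (adjusted p = 0.786) and SAV1 by -0.09 (adjusted p = 0.697). LATS1 changed by 0.11 in HT29 (adjusted p = 0.258) and by -0.16 in SW480 (adjusted p = 0.430), neither past the threshold.

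Of the upstream and junction genes, which relay cell contact and tension to the kinases, 2 of 11 passed in HT29 and 1 of 13 in SW480, the HT29 count being near the share over all genes. AJUBA, a LIM protein that binds LATS, was at 105.4 and 113.8 CPM in HT29 siCon and at 134.3 and 132.2 CPM in HT29 siPrdx2 (0.28, SE 0.05, adjusted p = 7.07e-04). The other call in HT29 was the polarity gene DLG5 (-0.23, SE 0.05, adjusted p = 0.00194). In SW480 it was WWC2, a KIBRA-family activator of LATS, at 85.2 and 77.7 CPM with siCon and 55.6 and 51.8 CPM with siPrdx2 (-0.60, SE 0.12, adjusted p = 0.0342). AJUBA was at 41.8 and 38.5 CPM in SW480 siCon and at 29.7 and 33.1 CPM in SW480 siPrdx2, and its effect differed between the lines by 0.64 (SE 0.13, adjusted p = 0.0439).

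The other nuclear partners were TEAD2, TEAD3, TEAD4 and the TEAD cofactors of the VGLL family. TEAD2 rose in HT29 from 54.8 and 53.1 CPM to 71.1 and 75.7 CPM (0.44, SE 0.06, adjusted p = 4.55e-05), and was the 1 gene of 6 to pass. Its share of the TEAD1 to TEAD4 TPM was 29.4% and 29.1% in HT29 siCon and 35.0% and 37.3% in HT29 siPrdx2. TEAD3 (-0.10, adjusted p = 0.288) and TEAD4 (-0.05, adjusted p = 0.741) did not pass there. In SW480 none of 5 passed, and none had an unadjusted p under 0.05 in edgeR, with TEAD2 at 0.19 (adjusted p = 0.383), TEAD3 at 0.22 (adjusted p = 0.390) and TEAD4 at -0.03 (adjusted p = 0.902).

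Of the other reported YAP/TAZ targets, 2 of 15 passed in SW480, both lower, and the median was -0.03. NT5E, the ecto-5'-nucleotidase CD73, went from 164.4 and 132.8 CPM to 63.2 and 65.3 CPM (-1.21, SE 0.13, adjusted p = 0.00434), and ASAP1, an Arf GTPase-activating protein, from 228.9 and 229.9 CPM to 166.6 and 159.2 CPM (-0.49, SE 0.10, adjusted p = 0.0403). In HT29, 3 of 12 passed, with the stress-response gene GADD45A higher (0.41, SE 0.06, adjusted p = 1.09e-04) and NT5E (-0.32, SE 0.04, adjusted p = 5.04e-05) and the phosphatase PTPN14 (-0.21, SE 0.05, adjusted p = 0.00720) lower. In SW480 PTPN14 changed by -0.42 (SE 0.10, adjusted p = 0.0626) and GADD45A by 0.20 (SE 0.12, adjusted p = 0.352), neither past the threshold. The effect on NT5E differed between the lines by 0.89 (SE 0.14, adjusted p = 0.0153), with the larger fall in SW480.

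The immediate early list holds genes of AP-1 and EGR factors, and also IER2 and IER3, which are neither. AP-1 factors often share enhancers with TEAD. In HT29, 7 of 9 rose, IER3 among them, and none fell, where 7.76% of all genes rose, with a median of 0.48 for the list. ATF3 went from 42.4 and 42.3 CPM to 81.0 and 79.9 CPM (0.93, SE 0.06, adjusted p = 5.61e-09), FOSB changed by 0.81 (SE 0.17, adjusted p = 0.00296) and JUN by 0.52 (SE 0.04, adjusted p = 3.58e-08). In SW480, 1 of 10 passed, JUN, which went from 51.3 and 54.6 CPM to 81.6 and 79.6 CPM (0.61, SE 0.11, adjusted p = 0.02996). The median of the list there was 0.25. FOSL1 (0.54, adjusted p = 0.0573), EGR1 (0.45, adjusted p = 0.0695) and IER3 (0.37, adjusted p = 0.0678) fell short of the threshold, and FOS, FOSB and EGR3 had negative changes. By the test of the difference between the lines, 1 of 10 passed, FOS. FOS, at 35.6 and 40.9 CPM in SW480 siCon and 31.9 and 32.3 CPM in SW480 siPrdx2, differed between the lines by 0.74 (SE 0.13, adjusted p = 0.0330), having risen by 0.48 in HT29 (adjusted p = 1.72e-05).

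Some listed genes were read in the control cells of 1 line and not the other, and are given by counts with no test. IGFBP3, a secreted binding protein of insulin-like growth factors, had 0 counts in all 4 HT29 libraries and 1564 and 1494 counts in SW480 siCon. The transcription factor gene FOXF2 also had 0 counts in HT29 against 126 and 168, and so did the angiomotin-family gene AMOTL1 against 668 and 702. The reverse was seen for the TEAD cofactor VGLL1, with 28 and 41 counts in HT29 siCon and 0 in all SW480 libraries. TEAD2 (0.86, adjusted p = 3.22e-04) and TEAD3 (1.71, adjusted p = 5.21e-06) were higher in HT29, while TEAD4 was lower there (-0.50, adjusted p = 0.0132), as TEAD1 was. LATS1 was higher in HT29 by 0.93 (adjusted p = 2.27e-04).

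The genes whose pattern over the 8 libraries was nearest to that of CYR61 were sought among 11562 genes with a mean of at least 5 TPM, by Euclidean distance between centred log2(TPM + 1) values. The nearest was COL13A1, a transmembrane collagen (distance 0.257), followed by IGFL1 (0.409), GABARAPL1, an autophagy gene of the ATG8 family (0.481), MICB, a ligand of the NKG2D receptor (0.509), and NID1, a basement membrane protein (0.509). COL13A1 was at 0 to 0.08 TPM in HT29, at 31.26 and 28.27 TPM in SW480 siCon and at 16.87 and 14.93 TPM in SW480 siPrdx2. GABARAPL1 was at 30.49 to 45.75 TPM in HT29, at 1225.03 and 959.01 TPM in SW480 siCon and at 576.01 and 570.23 TPM in SW480 siPrdx2. All 5 were lower in every HT29 library than in every SW480 library, which follows from the choice by likeness to CYR61. All but GABARAPL1 reached the mean of 5 TPM only through SW480. The distances are a description over these 8 libraries.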

How the data were processed

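The 8 libraries of HT29 and SW480 cells were grouped by the sample labels. Reads had been mapped to hg19 by the authors using MapSplice. For 25192 gene symbols the authors deposited RSEM's expected count, together with TPM (corrected for transcript length and set to an equal library total) and the isoform-weighted transcript length. FPKM columns were not used. The processing notes also name FastQC and DESeq2.

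Expected counts were rounded and tested with edgeR 4.0.16 (glmQLFit, glmQLFTest, TMM, Benjamini-Hochberg adjustment, threshold 0.05) in R 4.3.3, requiring 10 or more counts in 2 or more libraries per gene. CPM values used TMM factors of each line's own fit. SE is the absolute log2 fold change over the root of F. The difference between lines was fitted on all 8 libraries, and the control cells were compared on 4. Alternatives were DESeq2 1.42.0, RLE size factors in edgeR, the unfiltered table, limma 3.58.1 with log2(TPM + 1) or log2(TPM + 0.1), the replicate number as a block, all 8 libraries in 1 fit, leaving out each library, and a loess correction (span 0.5) for transcript GC content, which 89.2% of genes and all 9 members had. Named genes were the members, PRDX2, TEAD2, TEAD3, TEAD4, LATS1, up to 3 called genes per wider list and direction with a mean of at least 1 TPM, by fold change, and the 5 genes nearest to CYR61. Some list genes that did not pass are named beside these. IGFBP3, FOXF2, AMOTL1 and VGLL1 are given by counts, since their fitted folds against 0 are no bounds, and not every gene that the rule names in the comparison of control cells is printed. The members and lists were chosen with earlier results of these data known, so no count over them is independent evidence. Positions are from GENCODE v44lift37 on GRCh37, the assembly of hg19. Promoter windows are from RefSeq (GRCh38.p14), where 7 of 9 members matched. Scripts were tested on simulated data.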

Additional observations from a re-analysis of the deposited data

Results flagged for a closer look

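The effect of siPrdx2 differed between HT29 and SW480, by the test of the difference itself (quasi-likelihood F test of edgeR, adjusted by Benjamini-Hochberg, 2 libraries per group), for 6 of the genes described. The difference, HT29 minus SW480 on the log2 scale, was 1.52 for CTGF and 1.23 for CYR61, which fell in SW480, and 0.89 for NT5E, which fell in both lines and further in SW480. It was 0.64 for AJUBA, which rose by 0.28 in HT29 and changed by -0.36 in SW480 (adjusted p = 0.149). For FOS it was 0.74, with a rise of 0.48 in HT29 and a change of -0.25 in SW480 (adjusted p = 0.271). Neither SW480 change passed the threshold. PRDX2 itself differed by 0.84, so the depth of the knockdown was not matched between the lines, and its part in the other 5 differences was not tested. The CTGF and CYR61 calls were lost in most fits that left out 1 library. How those of NT5E, AJUBA, FOS and PRDX2 held is not given here. Over all genes, the test of the difference called 166, and between 43 and 1007 in the alternatives that kept every library. Every fit that left out 1 library fell outside that range, above it without either SW480 siCon library and below it otherwise.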

How the results depend on the processing

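Of 475 values of single members under an alternative, 399 kept their direction and their side of the threshold, 43 passed the threshold where they had not, 27 no longer passed and 6 changed sign. The 6 were below the threshold both ways. CTGF in HT29, at -0.10, ranged from -0.2453 to 0.0223 when 1 library was left out, above 0 without replicate 2 of either group. The difference between lines went for YAP1 from 0.09 to -0.0251 with the GC correction, with or without the replicate block, and to between -0.006 and 0.1698 when 1 library was left out, below 0 without SW480 siCon replicate 1. That of WWTR1 went from 0.24 to -0.0634 by limma on log2(TPM + 1). The cause was not tested.

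The 2 members called in HT29 became 0 by DESeq2, by limma with either pseudocount and with all 8 libraries in 1 fit, and 2 to 2 when 1 library was left out, where without HT29 siCon replicate 1 they were AMOTL2 and TEAD1 (higher), not YAP1. With the GC correction and the replicate block TEAD1 was also called in HT29 (adjusted p = 0.0464). The 4 in SW480 became 8 with the GC correction, 8 with that correction and the replicate block, 7 with all 8 libraries, and 3 to 8 when 1 library was left out. The 2 in the difference became 1 by DESeq2, which gave CTGF no adjusted p, 5 with the GC correction, with or without the block, 1 by limma on log2(TPM + 0.1), and 0 to 5 when 1 library was left out. Of the wider lists, the 16 genes called in HT29 became 7 with all 8 libraries and 14 to 19 with 1 library left out. The 4 in SW480 became 9 by DESeq2, 10 with the replicate block, 21 with the GC correction, with or without the block, 2 by limma with either pseudocount, 15 with all 8 libraries, 1 without either siPrdx2 library, and 28 and 26 without siCon replicate 1 and 2, a range of 1 to 28. Over all genes, SW480 calls went from 466 to between 87 and 7364, and HT29 calls from 2279 to between 185 and 3170.

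The TPM scale moved the median of all genes between control cells to -0.15 with log2(TPM + 1) and -0.16 with log2(TPM + 0.1), against -0.04.

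Same-numbered libraries deviated together only weakly (r = 0.10 in HT29 and 0.11 in SW480), with 2 pairs per line, so the replicate numbers were not taken to pair the libraries. With the replicate block, 2 members were called in HT29, 6 in SW480 (AMOTL2 and LATS2 added) and 2 in the difference. Between control cells it added LATS2. In fits without 1 library, the lone library is assumed to vary like the others. The spread of the SW480 siCon duplicates limits the SW480 calls, and depth limits ANKRD1 and WWTR1 in HT29.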
